A study of Mus musculus with 18 samples.

Results

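Extraocular muscle of mdx mice was set against leg muscle of mdx mice, on 3 expression arrays of each, which are 6 of the 18 arrays in the series. The arrays are those whose titles name these tissues of mdx mice, and the replicate number in the titles served as a block. The mdx mouse carries a mutation in the dystrophin gene, and its muscle fibres lack the protein. The titles mark these mice as controls. Both muscles came from mice of 8 weeks. The remaining arrays hold mdx heart and the same 3 tissues of dko mice, 3 arrays of each. In common usage a dko mouse lacks utrophin as well as dystrophin, although the labels leave the abbreviation unexplained. The dko extraocular and dko leg arrays serve here as separate samples of the same contrast. If dko has its common meaning, dystrophin is missing in all of these groups. Without wild-type muscle a feature of mdx extraocular muscle cannot be told apart from a feature of extraocular muscle in general. The sources used here do not name the leg muscle dissected or say whether tissue of several animals was pooled. Nothing in the labels says that the replicates are separate animals, so the tests weigh differences against a spread between arrays that may be technical only.

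Dystrophin ties the actin skeleton under the fibre membrane to a complex of dystroglycans, sarcoglycans and sarcospan, and through it to laminin outside the fibre. Without it, limb fibres are torn by contraction, die and are replaced by regenerating fibres while macrophages clear the debris. The muscles that move the eye are known to be largely spared in mdx mice. They arise from head mesoderm and not from somites, mix fast fibres with slow and multiply innervated ones, and keep embryonic and cardiac myosins that limb muscle loses after birth.

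Each array was scaled by the authors to a common trimmed mean intensity, and 8888 probe sets bright enough to test gave 6551 genes, each represented by its brightest probe set. Arrays of the same number deviated together from their group means (correlation across probe sets 0.576, 0.36 and 0.694 for numbers 1, 2 and 3). Between arrays of different number the correlation was -0.573 to 0.241. Each negative value came from a pair with an array numbered 3, and numbers 1 and 2 gave 0.241 and 0.0874. The pair numbered 3 stood apart, with medians of 540.9 and 550.75, against 614.95 to 672.05 on the other 4 arrays. Their highest intensities were 58010 and 73099, against 33423 to 47589. Among leg arrays, 28 probe sets reaching 5000 spread over at least 10-fold, 23 of them highest on array 3 and 20 lowest on array 2. In extraocular arrays there were 7. The 3′ over 5′ ratio of the Gapdh control probe sets was 0.566, 0.214 and 0.599 on extraocular arrays and 0.348, 0.879 and 0.248 on leg arrays, so the groups overlapped. That of the Actb control probe sets was 1.54, 0.802 and 1.17 on extraocular arrays and 1.02, 0.444 and 0.914 on leg arrays, so the groups overlapped while the extraocular array was higher in every pair of the same number. The part of this in the results was not tested. Per-array values below are in the order of the array numbers, log2 differences are extraocular minus leg on the scale of log2(intensity + 166.7), and a fold is 2 raised to that difference, which understates the change of dim probe sets. A gene is called where limma's adjusted p over all 8888 probe sets is under 0.05.

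The dystrophin transcript was dim in both muscles. Dmd read 682, 333 and 394 in extraocular muscle and 502, 216 and 229 in leg muscle (log2 difference 0.41, adjusted p = 0.271). The mdx mutation is known to stop translation and not transcription, so the probe set does not check the genotype. Utrn, which encodes the relative of dystrophin that gathers at the neuromuscular junction, read 553, 605 and 1086 in extraocular muscle and 438, 492 and 551 in leg muscle on the probe set whose groups did not overlap (log2 difference 0.43, adjusted p = 0.104). The other Utrn probe set read 856, 379 and 1005 in extraocular muscle and 438, 624 and 738 in leg muscle, and its groups overlapped. Neither Dmd nor Utrn passed the test. Some skeletal muscle markers read high on every array of both tissues, and others did not. The ryanodine receptor gene Ryr1, whose product releases calcium for contraction, read 24130.3, 28499.9 and 33672 in extraocular muscle and 26374, 21238 and 37379 in leg muscle. Tnnt3, fast troponin T, read 46508, 36046 and 57339 in extraocular muscle and 28382, 19491 and 73099 in leg muscle, and neither gene was called. Ckm, Myh1 and Pygm read 14007 or more on every array, and Tnni2 and Mylpf 2958 to 8072. In leg muscle, however, Acta1 read 256 and 248 on arrays 1 and 2, and Myh4 read 461 on array 2. Atp2a1 read 1607 and 1039 on leg arrays 1 and 2, and Myh2 was too dim to test.

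The muscles differed widely. Of 8888 probe sets, 1106 were called (12.4%), with 581 higher (6.54%) and 525 lower (5.91%) in extraocular muscle. Without the replicate block 357 were called, 228 higher and 129 lower, and all 357 are among the 1106. Without the arrays numbered 3, 601 were called, 330 higher and 271 lower, and without leg array 2 the lower calls numbered 346. Changes of at least 2-fold made up 248 of the higher and 166 of the lower calls. No overlap between the 3 extraocular and the 3 leg arrays was seen for 813 of the called probe sets. Over all 8888, extraocular arrays lay wholly above leg arrays for 8.88% and wholly below them for 8.27%. Counted by gene, 834 of 6551 were called (12.7%), 469 higher (7.16%) and 365 lower (5.57%), and the median log2 difference of all genes was -0.0201. These shares are the background for the list counts below. In bulk tissue, fewer cells of a type and less RNA per cell cannot be told apart.

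**Figure D1:**
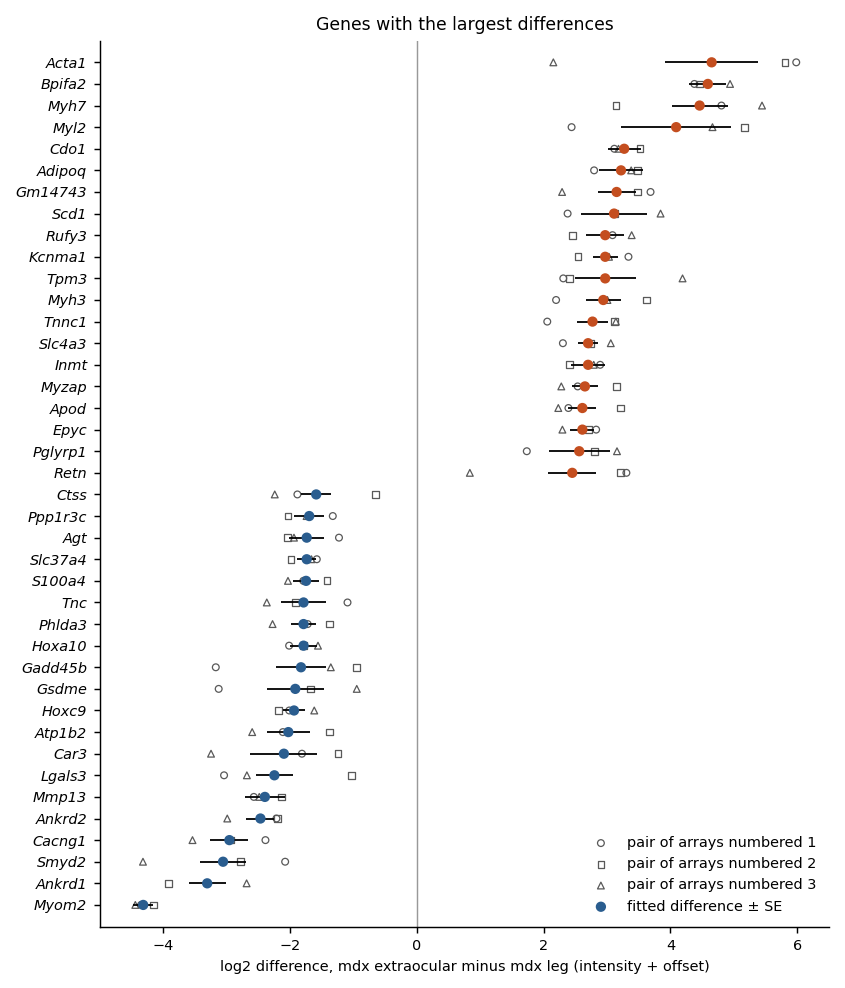
The 20 genes highest and the 20 lowest in mdx extraocular muscle among those called without overlap. The x axis is the log2 difference, extraocular minus leg. Filled points with bars are the fitted difference and its SE, and open symbols the differences within the pairs of arrays numbered 1, 2 and 3. The pairs lie close together for Myom2 and Cdo1 and far apart for Acta1, Myl2 and Retn.

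Beyond contractile genes, the genes that rose most were of several kinds. Slc4a3, which exchanges chloride for bicarbonate in excitable cells, read 11477, 13154 and 14440.0 in extraocular muscle, against 2193, 1819.8 and 1587 in leg muscle (6.51-fold, adjusted p = 3.5e-07). Kcnma1, the large-conductance potassium channel, read 8636, 4724 and 6482 in extraocular muscle, against 704, 674 and 647 in leg muscle (7.83-fold, adjusted p = 9.19e-07). Cdo1, cysteine dioxygenase, read 3787, 3811 and 2987 in extraocular muscle, against 290.0, 180.3 and 181 in leg muscle (9.65-fold, adjusted p = 3.4e-06). The muscles were apart on every array for these genes. Inmt, an N-methyltransferase, Rufy3, Myzap, of cardiac and epithelial junctions, and Pglyrp1, which binds bacterial peptidoglycan, were 6.48-, 7.86-, 6.29- and 5.91-fold higher. Gm14743 was 8.9-fold higher, with a lower reading on extraocular array 3 (1615) than on arrays 1 and 2 (11251 and 7485).

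Among the genes that fell most, Phlda3, a target of p53 that restrains Akt, read 2713, 2995 and 3579 in extraocular muscle, against 9354, 8048 and 18013 in leg muscle (3.47-fold lower, adjusted p = 6.04e-05). S100a4, a calcium-binding protein of motile and immune cells, read 1355, 1558 and 1523 in extraocular muscle, against 5108, 4449 and 6759 in leg muscle (3.36-fold lower, adjusted p = 5.92e-05). Slc37a4, the glucose-6-phosphate transporter, read 1712, 2009 and 1953 in extraocular muscle, against 5452, 8453 and 6556 in leg muscle (3.35-fold lower, adjusted p = 8.4e-06). Every leg reading of these genes was above every extraocular reading. Agt, angiotensinogen, Gadd45b, a stress-induced growth regulator, and Atp1b2, a sodium pump subunit, were 3.34-, 3.55- and 4.09-fold lower (adjusted p = 0.000851, 0.00725 and 0.00132). Second probe sets of Gadd45b and Atp1b2 were not called, and without the replicate block the calls given here were lost for both genes (adjusted p = 0.0647 and 0.0791). Gsdme, a gasdermin, was 3.78-fold lower, and its call was lost without leg array 1 (adjusted p = 0.0565).

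Several slow contractile genes were among those that rose most. Among 12 tested genes of slow contractile proteins, 6 were higher and 2 lower, with a median log2 difference of 1.51. Myh7, the slow myosin heavy chain, read 11231, 18949 and 22901 in extraocular muscle, against 241, 1999 and 363 in leg muscle, a 22.1-fold difference (4.46 ± 0.44 SE on the log2 scale, adjusted p = 2.1e-05). All extraocular readings lay above all leg readings, and leg array 2 was the highest of its group. A dimmer Myh7 probe set read 214, 376 and 294 in extraocular muscle and 223, 168 and 208 in leg muscle and was not called (adjusted p = 0.291). The brighter one may read related myosins, since its name marks probes shared within a family.

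Several thin filament and myosin light chain genes of slow fibres rose as well. Tnnc1, slow and cardiac troponin C, read 10274, 13033 and 21981 in extraocular muscle, against 2344, 1361 and 2348 in leg muscle (6.81-fold, adjusted p = 1.17e-05). Tnnt1, slow troponin T, read 26846, 22872 and 46826 in extraocular muscle, against 5339, 5768 and 6655 in leg muscle (5.08-fold, adjusted p = 0.000628). Tpm3, slow tropomyosin, was 7.83-fold higher (adjusted p = 0.00109), and the slow light chain Myl2 17-fold (adjusted p = 0.00647), with leg readings of Myl2 as far apart as 2478 and 309. The same Myl2 probe set read 3140, 340 and 30900 in mdx heart, so its readings were unsteady there too. What makes them unsteady was not tested. Myl2 was not called without the replicate block (adjusted p = 0.089). Myl6b, another slow light chain, was 3.45-fold higher, and its call was lost without extraocular array 3 or leg array 3 (adjusted p up to 0.11). Tnni1, slow troponin I, did not overlap between the groups but missed the threshold (1.24, adjusted p = 0.057).

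The slow list also held Ankrd2, one of the genes that fell most. Ankrd2, a titin-binding ankyrin repeat protein induced by stretch, read 1504, 1799.7 and 1866 in extraocular muscle, against 7601, 8849 and 16026 in leg muscle (5.54-fold lower, adjusted p = 8.4e-06). Its relative Ankrd1, of the heart muscle list, read 219, 440.1 and 596 in extraocular muscle, against 3692, 9000.0 and 4750.4 in leg muscle (9.91-fold lower, adjusted p = 8.4e-06). Every leg array was above every extraocular array for both genes, with the highest Ankrd1 reading on leg array 2 and the highest Ankrd2 reading on leg array 3. Csrp3, muscle LIM protein of the Z disc and the other lower gene of the slow list, was 2.19-fold lower (adjusted p = 0.000995). With Ankrd1 and Csrp3 lower and Myh6, the alpha cardiac myosin, 5.43-fold higher, the list of 20 heart muscle genes had 1 higher and 2 lower members. The Myh6 call was lost without extraocular array 2 or leg array 3 (adjusted p up to 0.0751).

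Promoters are printed for Myh7 and Tnnc1, which were high, and for Ankrd1 and Ankrd2, which were low, because the members of each pair moved together. They come from RefSeq (GRCm38.p6), run 5′ to 3′ on the gene's strand from 250 bases before to 50 after a transcript start, and carry in capitals the matches to the E-box CANNTG, which myogenic bHLH factors bind, and the M-CAT element CATTCC on either strand, which TEAD factors bind. Myh7 has 2 listed starts, of which the upstream one is shown.
Myh7 promoter, chr14:54994577-54994876, minus strand: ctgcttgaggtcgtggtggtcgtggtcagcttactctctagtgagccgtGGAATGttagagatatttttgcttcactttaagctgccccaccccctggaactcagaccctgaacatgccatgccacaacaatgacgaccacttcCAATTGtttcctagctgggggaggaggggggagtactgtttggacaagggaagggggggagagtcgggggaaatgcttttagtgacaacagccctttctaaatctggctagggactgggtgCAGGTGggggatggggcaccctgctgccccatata
Tnnc1 promoter, chr14:31208062-31208361, plus strand: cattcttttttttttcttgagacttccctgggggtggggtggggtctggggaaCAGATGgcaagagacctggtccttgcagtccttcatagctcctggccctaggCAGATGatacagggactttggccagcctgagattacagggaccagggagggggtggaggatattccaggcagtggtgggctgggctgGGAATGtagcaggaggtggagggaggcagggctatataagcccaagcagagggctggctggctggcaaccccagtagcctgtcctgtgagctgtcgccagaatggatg
Ankrd1 promoter, chr19:36119795-36120094, minus strand: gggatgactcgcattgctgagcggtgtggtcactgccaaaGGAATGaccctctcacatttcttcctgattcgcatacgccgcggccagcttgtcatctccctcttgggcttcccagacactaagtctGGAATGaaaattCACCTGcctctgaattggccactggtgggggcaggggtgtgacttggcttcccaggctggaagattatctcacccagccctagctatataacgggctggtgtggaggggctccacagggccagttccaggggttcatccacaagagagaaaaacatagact
Ankrd2 promoter, chr19:42035777-42036076, plus strand: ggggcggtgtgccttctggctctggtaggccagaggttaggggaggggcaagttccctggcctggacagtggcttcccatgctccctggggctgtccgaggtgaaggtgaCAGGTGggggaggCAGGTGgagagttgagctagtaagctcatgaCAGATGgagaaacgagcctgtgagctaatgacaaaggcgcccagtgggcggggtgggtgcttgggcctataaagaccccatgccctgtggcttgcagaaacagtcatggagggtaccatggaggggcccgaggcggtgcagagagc
The Myh7 and Tnnc1 windows each hold 2 E-boxes and 1 M-CAT match, the Ankrd1 window 1 and 2, and the Ankrd2 window 3 and 0. Over all 32851 promoters of this length, 72.3% hold an E-box and 14.7% an M-CAT match, which can share bases with each other or with other motifs. Of the 20 genes that rose most, 18 had a promoter entry, 15 of them with an E-box and 3 with an M-CAT match. Of the 20 that fell most, 15 had an entry, 10 with an E-box and 2 with an M-CAT match. A match describes the letters of the window and is not a measured binding site.

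Developmental myosins were present in both muscles and higher in extraocular muscle. Myh3, which encodes embryonic myosin, read 9979.7, 18438 and 21625 in extraocular muscle, against 2049, 1345 and 2548 in leg muscle (7.68-fold, adjusted p = 1.72e-05). Myh8, the neonatal form, read 3691, 4293 and 5217 in extraocular muscle, against 1825, 1997 and 2721 in leg muscle (1.95-fold, adjusted p = 0.00274). The extraocular readings of both lay above all leg readings. Myh11, the smooth muscle form, was 4.57-fold higher (adjusted p = 0.00173), so that 5 of 9 tested myosin heavy chains rose and 0 fell. The fast forms Myh1 and Myh4 did not pass the test. Myh1 read 36410.5, 32246 and 57221 in extraocular muscle and 23697, 20582 and 65337 in leg muscle, and Myh4 read 19705, 24929 and 44665 in extraocular muscle and 10918, 461 and 48678 in leg muscle. At that spread of leg readings a difference in Myh4 was not detectable.

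**Figure D2:**
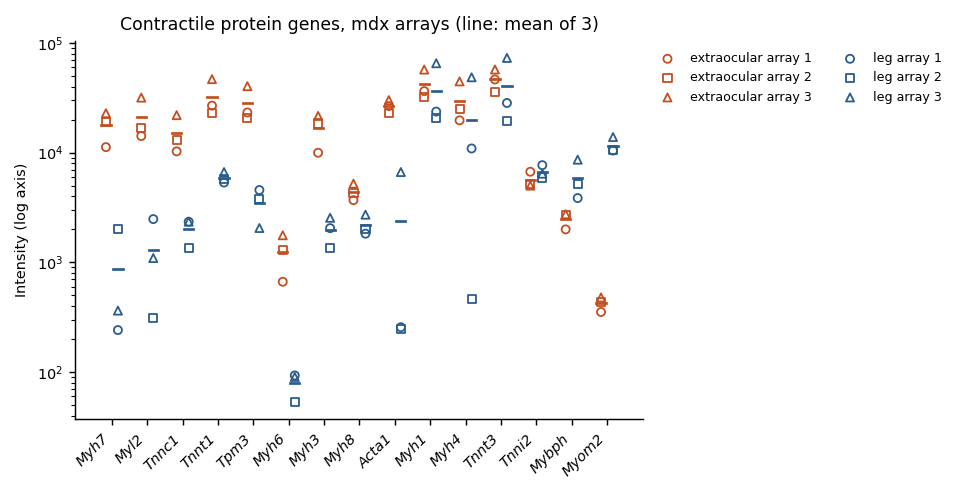
Intensity on a log axis of 15 contractile protein genes on each mdx array, extraocular muscle to the left of leg muscle, with a line at the mean of 3 arrays. Slow and embryonic genes from Myh7 to Myh8 are separate between the muscles, fast genes from Myh1 to Tnni2 overlap, and Myom2 lies at 352 to 478.5 in extraocular muscle, against 10449 to 13882 in leg muscle.

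Myom2 showed the most negative difference of all 8888 probe sets and the smallest adjusted p. Its product, myomesin 2, crosslinks thick filaments at the M band of fast fibres. It read 352, 433 and 478 in extraocular muscle, against 10449, 10520.2 and 13882 in leg muscle, 19.9-fold lower (-4.32 ± 0.16 SE, adjusted p = 2.04e-09). Of 15 tested fast contractile genes, 2 were higher and 2 lower, with a median log2 difference of 0.36. That median rested on single leg arrays, at -0.286 without leg array 2 and 0.814 without leg array 3. Mybph, a myosin-binding protein, was 2.2-fold lower (adjusted p = 0.0068). Tpm1, alpha tropomyosin, was 1.86-fold higher, a call lost without extraocular array 2 or 3 or leg array 2 or 3 (adjusted p up to 0.111). Acta1, skeletal alpha actin, had the most positive difference, 4.65 ± 0.73 SE (adjusted p = 0.000821). It read 26606, 23033 and 30153 in extraocular muscle, against 256, 248 and 6656 in leg muscle. The leg readings of this abundant transcript disagree among themselves by a wide margin, with array 3 far above the other two. The same held for Myl1, fast light chain 1, at 1873, 1127 and 45718 in leg muscle, and for Actn3, alpha actinin 3 of the fast Z disc, at 10542, 520.2 and 39332 in leg muscle. A dimmer Actn3 probe set read 4111, 4020.5 and 3218 in extraocular muscle, against 10656, 12371 and 8196 in leg muscle, and was called lower (adjusted p = 0.000305). What makes the bright leg probe sets unsteady was not tested.

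Smyd2 and Cacng1 were also much lower in extraocular muscle. Smyd2, a lysine methyltransferase that acts on chaperone complexes at the sarcomere, read 224, 189 and 234 in extraocular muscle, against 1483, 2280.5 and 7861 in leg muscle (8.35-fold lower, adjusted p = 0.00011). Cacng1, the gamma subunit of the skeletal muscle calcium channel, read 1146, 996 and 1146 in extraocular muscle, against 6718, 8717 and 15129 in leg muscle (7.76-fold lower, adjusted p = 2.74e-05). Leg array 3 was highest for both, and the groups were apart on every array. Of 21 calcium handling genes, 2 were higher and 3 lower, with a median of -0.0954. The calcineurin subunit Ppp3ca was 1.99-fold lower (adjusted p = 9.83e-05) and the calcineurin inhibitor Rcan1 1.63-fold lower, with the Rcan1 call lost in 4 of the 6 fits that left out 1 array (extraocular 2 or 3, leg 1 or 2, adjusted p up to 0.1). S100a1, which tunes calcium release, was 1.89-fold higher (adjusted p = 0.0005), and Atp2a2, the slow and cardiac calcium pump, 1.92-fold higher (adjusted p = 0.00687) with overlapping groups.

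Among genes of the dystrophin-associated complex and the costamere, the rib-like anchorage of the Z disc, more were called lower than higher. Of 21 tested, 2 were higher and 7 lower, with a median of -0.27. Vcl, vinculin of the costamere, read 3818, 6529 and 5341 in extraocular muscle and 6199.7, 13211 and 9796 in leg muscle (1.79-fold lower, adjusted p = 0.000509). Each extraocular reading was below the leg reading of its own number, while the groups as wholes overlapped. Capn3, the calpain whose loss causes limb-girdle dystrophy, read 5399, 6098 and 3544 in extraocular muscle, against 10988, 9691 and 8222 in leg muscle (1.92-fold lower, adjusted p = 0.00764). The other 5 that fell were Plec (plectin), Dtna (dystrobrevin), Cav3 (caveolin 3) and the sarcoglycans Sgca and Sgcb, lower by 1.43- to 2.14-fold. Each of these 5 calls was lost in 2 to 5 of the 6 fits that left out 1 array, with an adjusted p of at most 0.101. Sgce, epsilon-sarcoglycan, which replaces the alpha form outside striated fibres, read 2429, 2965 and 2629.8 in extraocular muscle, against 1040.4, 902 and 1775 in leg muscle (2.09-fold higher, adjusted p = 0.0014). Sspn, sarcospan, was 1.54-fold higher, and its call was lost without extraocular array 3 (adjusted p = 0.0547). Leaving out 1 array at a time gave 3 to 6 lower genes, the fewest without leg array 2, and without the replicate block 1 gene of the list was higher and 0 were lower. Dag1, dystroglycan, and Nos1, the nitric oxide synthase held by the complex, did not pass the test (0.11 and -0.49, adjusted p = 0.654 and 0.234).

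Several neuromuscular junction genes were higher in extraocular muscle. Of 14 tested, 6 were higher and 1 lower, and the median was 0.45. Chrne, the adult epsilon subunit of the acetylcholine receptor, read 1684, 1609.5 and 1884 in extraocular muscle, against 1079, 838 and 684 in leg muscle (1.85-fold, adjusted p = 0.00252). Chrna1, the alpha subunit, read 4559, 5664 and 6833 in extraocular muscle, against 2326, 3360.4 and 3349 in leg muscle (1.84-fold, adjusted p = 0.00333). Both were apart on every array. Erbb3, a neuregulin receptor of the junction and of Schwann cells, was 2.63-fold higher (adjusted p = 0.000499), and Prkar1a, a regulatory subunit of protein kinase A, 1.85-fold higher (adjusted p = 0.000215). Chrnd, the delta subunit, and Lama5, a laminin chain, were also higher, with calls lost in 3 and 4 of the fits leaving out 1 array (adjusted p up to 0.129 and 0.122). Chrng, the foetal gamma subunit that returns in regenerating and denervated fibres, was 2.09-fold lower, and that call was lost in 5 of those fits (adjusted p up to 0.166). A second Chrne probe set and a second Chrng probe set were not called. Markers of nerve and Schwann cells were higher in the same arrays, as given below, and their part in the result was not tested.

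Genes of regeneration and embryonic muscle moved both ways. Of 27 tested, 5 were higher and 4 lower, with a median of 0.000993. The sign of this median turned under quantile normalization and under scaling to the same 75th percentile. It also turned without leg array 2 or 3 or extraocular array 3. Leaving out 1 array at a time gave 3 to 7 higher genes, the fewest without extraocular array 2, and 2 to 4 lower ones. Besides Myh3 and Myh8, Fst (follistatin, which binds myostatin), Myf5 (a factor of muscle precursors) and Mstn (myostatin, the brake on muscle growth) were higher. Fst read 897, 980.5 and 2043 in extraocular muscle, against 62.4, 304 and 701 in leg muscle (3.07-fold, adjusted p = 0.000656). Leg array 3 was the one leg reading near the extraocular range. Myf5 was 2.18-fold and Mstn 1.71-fold higher, and these calls were lost without extraocular array 2 or leg array 3 (Myf5 also without extraocular array 3), with adjusted p up to 0.103 and 0.0823. Bex1, expressed in regenerating fibres, read 57.7, 159 and 360.2 in extraocular muscle and 350.2, 408 and 906 in leg muscle (2.02-fold lower, adjusted p = 0.000544). Its groups overlapped, and it was not called without the block (adjusted p = 0.19). Myl4, the embryonic light chain, and Nes, nestin, were 2.11-fold and 1.65-fold lower with Chrng. The Myl4 call was lost without leg array 1 and the Nes call without extraocular array 1 or 2 or leg array 2 or 3 (adjusted p up to 0.0718 and 0.133). Myog and Myod1, the myogenic regulators of differentiation, did not pass the test (-0.37 and -0.41, adjusted p = 0.421 and 0.569).

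Several Hox genes, which mark position along the trunk and limb, were lower in extraocular muscle. Hoxc9 read 151, 134 and 162 in extraocular muscle, against 1119, 1203 and 845 in leg muscle (3.84-fold lower, adjusted p = 1.18e-05). Hoxa10, a gene of the hindlimb level, read 30.7, 5.8 and 19.8 in extraocular muscle, against 632, 429 and 384 in leg muscle (3.46-fold lower, adjusted p = 8.34e-05). The extraocular readings of Hoxa10 are at the foot of the scale, and both genes were apart on every array. Of 21 tested limb and trunk patterning genes 6 were lower and 2 higher, with a median of -0.30. The other 4 lower genes were Hoxc4, Hoxa9, Hoxa5 and Shox2, 1.66- to 1.91-fold lower, and each of these calls was lost in 5 or 6 of the 6 fits that left out 1 array (adjusted p up to 0.18). The transcription factor Tbx15 was 2.06-fold higher, and Pitx1, a hindlimb determinant, 1.7-fold higher. The Tbx15 call was lost in 4 and the Pitx1 call in 6 of those fits (adjusted p up to 0.0912 and 0.102). Leaving out 1 array at a time gave 0 or 1 higher and 2 or 3 lower genes of the list. Of 12 head patterning genes 2 were higher and 1 lower (median -0.0724). Eya2, a transcriptional co-activator of muscle precursors, read 1729.8, 1914 and 1228 in extraocular muscle, against 273, 766 and 404 in leg muscle (2.87-fold, adjusted p = 0.00197). The forkhead gene Foxc2 was 2.29-fold higher and Bmp5 2.19-fold lower. Leaving out extraocular array 3 or leg array 3 ended both calls, as did leg array 1 for Foxc2 and extraocular array 2 or leg array 2 for Bmp5 (adjusted p up to 0.0699 and 0.102).

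**Figure D3:**
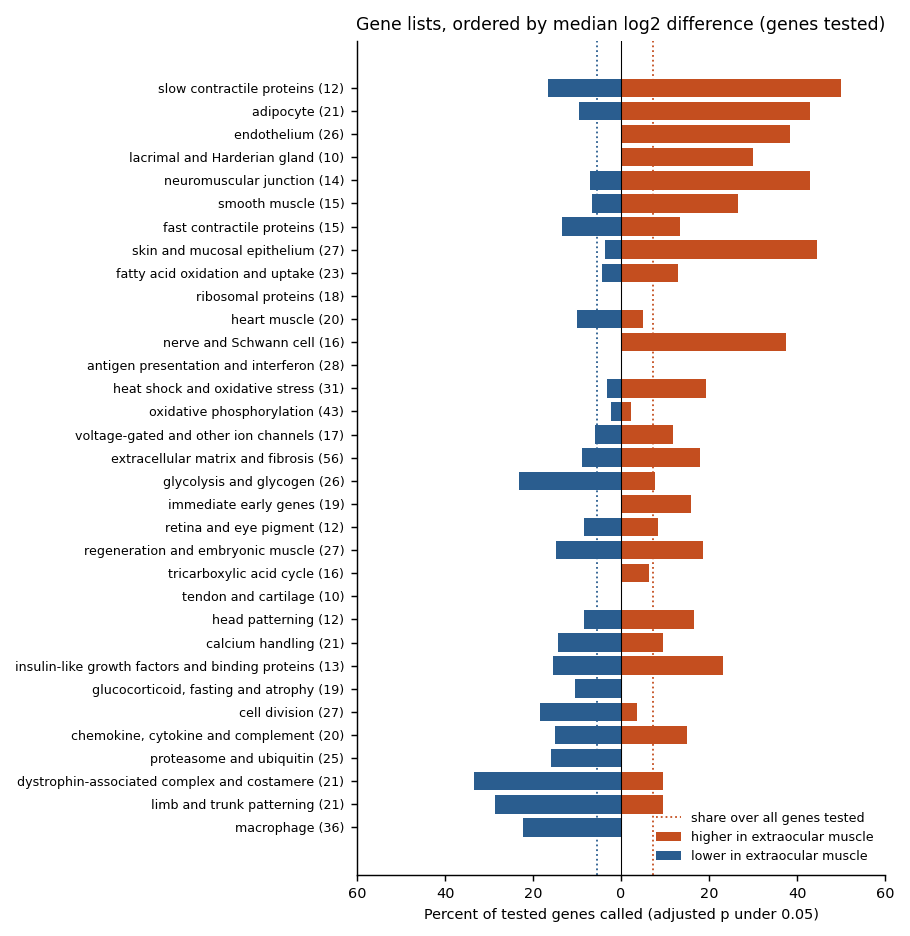
Percent of the tested genes of each list called higher (right) or lower (left) in mdx extraocular muscle, for lists of at least 10 tested genes, ordered by median log2 difference. Dotted lines mark the shares over all 6551 genes, 7.16% higher and 5.57% lower. Slow contractile, epithelial, adipocyte and junction lists extend furthest to the right, and the dystrophin complex, patterning, glycogen and macrophage lists furthest to the left.

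Several genes of glycogen metabolism were lower and the heart-type lactate dehydrogenase was higher in extraocular muscle, while Pygm, muscle glycogen phosphorylase, did not pass the test (0.15, adjusted p = 0.71). Ppp1r3c, which brings protein phosphatase to glycogen, read 1519, 1185 and 1339.5 in extraocular muscle, against 4068, 5368 and 4869.9 in leg muscle (3.25-fold lower, adjusted p = 0.000438). Phka1, the muscle regulatory subunit of phosphorylase kinase, read 1742, 2539 and 2585 in extraocular muscle, against 4879.7, 8528 and 8585 in leg muscle (3-fold lower, adjusted p = 0.000348). Its catalytic partner Phkg1 was 1.74-fold lower (adjusted p = 0.00161), and a further subunit gene, Phkb, was too dim to test. Fbp2, muscle fructose bisphosphatase, and Pgm1, phosphoglucomutase, were 2.39- and 1.99-fold lower (adjusted p = 0.000499 and 0.0014). Gpd1, glycerol phosphate dehydrogenase, was 2.78-fold lower, and that call was lost in 5 of the 6 fits leaving out 1 array (adjusted p up to 0.139). Ldhb read 5985, 4630.4 and 9347 in extraocular muscle, against 1178, 746 and 2034 in leg muscle (4.7-fold higher, adjusted p = 5.92e-05). Ldha, the muscle form, was called higher too (3.58, adjusted p = 0.014), but its leg readings of 651, 239.5 and 40802 overlap the extraocular readings of 28875, 18116 and 43451, and the call was lost without extraocular array 1 or 2 or leg array 1 or 2 (adjusted p up to 0.0835). In all, 2 of 26 glycolysis and glycogen genes were higher and 6 lower. Without leg array 3 these counts were 7 and 5, and without both arrays numbered 3 they were 4 and 6. Their median of 0.0436 was negative under quantile normalization, at -0.0345.

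Few mitochondrial genes passed the test. Of 43 oxidative phosphorylation genes 1 was higher (Cox6a1, a subunit of cytochrome oxidase, 1.91-fold, adjusted p = 0.00067) and 1 lower (Atp5g1, a subunit of ATP synthase, 2.15-fold, adjusted p = 0.00316), with a median of 0.0853. Of 16 tricarboxylic acid cycle genes, Idh2, mitochondrial isocitrate dehydrogenase, was higher (2.15-fold, adjusted p = 0.000102) and 0 were lower. Among 23 genes of fatty acid oxidation and uptake, 3 were higher (Echs1, Cpt1a and Hadhb) and 1 lower (Acads), with a median of 0.33. Of these 23 genes 18 had a positive difference, and 14 had an unadjusted p under 0.05, against 1765 of all 6551 genes. All 4 calls were lost in 4 or 5 of the fits leaving out 1 array (adjusted p up to 0.172).

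Several macrophage genes were lower in extraocular muscle. Of 36 tested, 0 were higher and 8 lower, and the median was -0.45. Lgals3, galectin 3 of activated macrophages, read 320.5, 1324 and 984 in extraocular muscle, against 3852, 2885 and 7229 in leg muscle (4.77-fold lower, adjusted p = 0.000161). Ctss, cathepsin S of antigen-presenting cells, read 2291, 3805 and 2735 in extraocular muscle, against 8921, 6063 and 13580.2 in leg muscle (3.02-fold lower, adjusted p = 0.000564). Both genes were apart on every array. Ptprc, the leukocyte antigen CD45, read 42.8, 29.2 and 132 in extraocular muscle, against 278, 218 and 539 in leg muscle (2.14-fold lower, adjusted p = 0.00555). Ncf1, of the phagocyte oxidase, and Lilr4b, an inhibitory receptor, were 1.92- and 2.26-fold lower (adjusted p = 0.00122 and 0.00307). Mpeg1, Cd68 and Cd14 were 1.43- to 2.45-fold lower, with calls lost in 2 to 4 of the fits leaving out 1 array (adjusted p up to 0.165). The remaining 28 members did not pass, among them the defining markers Adgre1 and Csf1r (-0.48 and -0.0476, adjusted p = 0.563 and 0.917). The summed intensity of the list was 75782 to 82474 in extraocular muscle and 74688 to 142476 in leg muscle, so the sums overlapped. Leaving out 1 array at a time gave 5 to 13 lower members, the highest number without leg array 2.

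In the T and B cell lists 1 gene was called. Of 7 tested T cell genes 0 were called by limma (1 at an unadjusted p under 0.05), and of 7 B cell genes Ighm, the immunoglobulin heavy chain, was lower (2.09-fold, adjusted p = 0.00418). That call is of 1 Ighm probe set, and many others of the gene were too dim to test. The muscles overlapped on 1 of these dim ones, at 217, 271 and 466.5 in extraocular muscle and 288, 363.5 and 300 in leg muscle. Of 28 genes of antigen presentation and interferon 0 were called by limma, with 10 at an unadjusted p under 0.05, while 3 were called higher without leg array 3 and 2 lower without leg array 2. Of 20 chemokine, cytokine and complement genes, 3 were higher and 3 lower (median -0.22). Ccl11, eotaxin, read 2356, 1346 and 1553 in extraocular muscle, against 475, 455 and 532 in leg muscle (2.87-fold, adjusted p = 4.34e-05). Cxcl12, a chemokine of stromal cells, was 2.59-fold higher (adjusted p = 0.00061) and Serping1, the C1 inhibitor, 1.68-fold higher, a call lost without leg array 2 (adjusted p = 0.0526). Cd55, which protects cells from complement, was 2.41-fold lower (adjusted p = 0.00103), and the complement receptor C3ar1 1.89-fold lower (adjusted p = 0.00657). Ccl7, a monocyte chemokine, was 2.01-fold lower, a call lost without extraocular array 1 or 3 or leg array 3 (adjusted p up to 0.0942).

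Matrix genes moved both ways. Tnc, tenascin C of injured tissue, read 278, 100.2 and 244 in extraocular muscle, against 784, 838 and 1954 in leg muscle (3.46-fold lower, adjusted p = 0.00415). Timp1, an inhibitor of matrix proteases induced in damage, read 3639, 3316 and 2353 in extraocular muscle, against 6900.3, 6279 and 11926 in leg muscle (2.55-fold lower, adjusted p = 0.00393). Mmp13, a collagenase, was 5.27-fold lower (adjusted p = 0.000164). In the other direction Eln, elastin, read 12401, 14819 and 26441 in extraocular muscle, against 5629.9, 4782 and 8044 in leg muscle (2.77-fold, adjusted p = 0.000184). Ogn, the proteoglycan osteoglycin, read 5377, 5206 and 5289 in extraocular muscle, against 1725, 1703 and 2029.8 in leg muscle (2.75-fold, adjusted p = 0.00021). Timp3, a matrix-bound protease inhibitor, was 2.49-fold and Lum, lumican, 1.76-fold higher (adjusted p = 0.000527 and 0.00313). In the matrix list as a whole 10 of 56 genes were higher and 5 lower, with a median of 0.0663. Without the arrays numbered 3 the counts were 7 and 0, without the block 4 and 2, and leaving out 1 array at a time gave 7 to 9 higher and 3 to 5 lower genes, the fewest lower ones without extraocular array 1 or 2 or leg array 3. The fibrillar collagens Col1a1, Col1a2 and Col3a1 did not pass the test (-0.48, -0.52 and -0.29, adjusted p = 0.0853, 0.074 and 0.418). Of 10 tendon and cartilage genes 0 were called by limma (3 at an unadjusted p under 0.05), with 2 called higher without leg array 3, while Epyc, a cartilage proteoglycan outside that list, read 1524, 1040.4 and 915 in extraocular muscle, against 71.5, 18 and 53.7 in leg muscle (6.11-fold, adjusted p = 2.11e-06).

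More cell division genes were called lower than higher. Of 27, 5 were lower and 1 higher, with a median of -0.20. Rrm1, of ribonucleotide reductase, read 221, 169.7 and 264 in extraocular muscle, against 468, 511 and 931 in leg muscle (2.03-fold lower, adjusted p = 0.00278). H2az1, a histone variant, was 1.97-fold lower (adjusted p = 0.00173). Tk1 (thymidine kinase), Aurka (Aurora kinase A) and Birc5 (survivin) were 1.58- to 2.17-fold lower, with calls lost in 4 to 6 of the fits leaving out 1 array (adjusted p up to 0.228). Stmn1, stathmin, was 2.33-fold higher (adjusted p = 0.00471). Leaving out 1 array at a time gave 2 to 4 lower genes, and without the block there was 1.

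Markers of nerve, vessel, fat, gland and epithelium were among the genes higher in the extraocular samples, and their part in the results above was not tested. Mbp, myelin basic protein, read 4418, 5647 and 7816 in extraocular muscle, against 1281, 786 and 857 in leg muscle (5.32-fold, adjusted p = 1.18e-05), while a dimmer Mbp probe set was not called (adjusted p = 0.79). Pmp22, peripheral myelin protein, read 9840.0, 10387 and 13646 in extraocular muscle, against 1975, 1818 and 1971 in leg muscle (5.44-fold, adjusted p = 3.24e-06). With Mal, Egr2, S100b and Th, tyrosine hydroxylase of sympathetic nerve, 6 of 16 nerve and Schwann cell genes were higher and 0 lower (median 0.13). The S100b call was lost without extraocular array 2 or 3 or leg array 1 or 3, and the Th call without extraocular array 2 or leg array 1 or 3 (adjusted p up to 0.132 and 0.102). The summed intensity of the list was 30884 to 35125 in extraocular muscle, against 13536 to 20413 in leg muscle. Pmp22 and Mbp made up much of the extraocular sums.

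Several vessel genes were higher as well. Of 26 endothelial genes 10 were higher and 0 lower, with a median of 0.47. Leaving out any 1 array gave 6 or 7 higher genes (7 without extraocular array 1), and without the block there were 4. Vwf, von Willebrand factor, read 2032, 2944 and 2592 in extraocular muscle, against 1026, 961 and 985 in leg muscle (2.3-fold, adjusted p = 0.000121). Tek, the angiopoietin receptor, and Lyve1, of lymphatic vessels, were 2.25- and 2.26-fold higher (adjusted p = 0.00252 and 0.000818). Pecam1, a defining marker, read 1394, 1300.3 and 447 in extraocular muscle and 1618, 1460.3 and 218 in leg muscle and was not called (adjusted p = 0.88). The list summed to 47568 to 77930 in extraocular muscle and 38135 to 48093 in leg muscle, so the sums overlapped. Smooth muscle genes had 4 of 15 higher (Myh11, Tagln, Mylk and Myl9) and 1 lower (Rgs5, of pericytes), with a median of 0.45, against 0 higher and 1 lower without the arrays numbered 3. The Myl9 call was lost without extraocular array 2 or leg array 1 (adjusted p up to 0.0532). Their sums overlapped, at 59150 to 91148 in extraocular muscle and 53691 to 87304 in leg muscle. Erythroid genes had 2 of 4 higher, Hbb-b2, beta globin, at 3.92-fold and Alas2, of haem synthesis, at 2.41-fold, with sums of 51497 to 62497 in extraocular muscle, against 11392 to 23225 in leg muscle. Leaving out extraocular array 2 or leg array 2 ended the Hbb-b2 call, and leaving out extraocular array 1 or 3 or leg array 1 or 2 ended the Alas2 call (adjusted p up to 0.06 and 0.136).

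Fat and gland genes were among those that rose most. Adipoq, adiponectin, read 10418, 7581 and 6354 in extraocular muscle, against 1358, 526 and 459.6 in leg muscle (9.31-fold, adjusted p = 5.16e-05). Scd1, stearoyl-CoA desaturase, read 19792, 25848 and 22656 in extraocular muscle, against 3676, 2817 and 1423 in leg muscle (8.66-fold, adjusted p = 0.00132). Retn, resistin, Fasn, fatty acid synthase, and Cidea, a lipid droplet protein, were 5.47-, 4.94- and 3.39-fold higher. Of 21 adipocyte genes 9 were higher and 2 lower (Car3 and Agt), with a median of 0.65, and the sums overlapped at 97468 to 132308 in extraocular muscle and 70524 to 111518 in leg muscle. Only the sum of leg array 3 lay within the extraocular range, and Car3 made up much of it. Car3 read 6692, 8898 and 5103.5 in extraocular muscle, against 23966, 21316 and 49957 in leg muscle. The Car3 call was lost without extraocular array 1 or 3 or leg array 3 (adjusted p up to 0.086). Bpifa2, a secreted protein of salivary and lacrimal tissue outside the lists, read 9392, 9392 and 8223 in extraocular muscle, against 293, 267 and 107 in leg muscle (24.1-fold, adjusted p = 5.8e-07). Of 10 lacrimal and Harderian gland genes 3 were higher (Apod, Wfdc18 and Amy1) and 0 lower, with a median of 0.47. The array held 19 genes of this list, and those not tested were too dim. Among dim probe sets, that of Car6 read 88.8, 55.8 and 94.9 in extraocular muscle and 77.7, 56.2 and 78.5 in leg muscle. That of Azgp1 read 83.4, 68.1 and 193.9 in extraocular muscle and 333.6, 70.8 and 102.8 in leg muscle. The sums of the 10 tested genes were 19560 to 22385 in extraocular muscle, against 6633 to 12168 in leg muscle. Apod, apolipoprotein D, which Schwann cells and fibroblasts also express, made up much of that sum, at 8801, 14474 and 14342 in extraocular muscle, against 1544, 1414 and 2926 in leg muscle (6.11-fold, adjusted p = 5.09e-06).

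Several epithelial genes were higher too. Of 27 skin and mucosal epithelium genes 12 were higher and 1 lower, with a median of 0.35. Leaving out extraocular array 2 gave 7 higher and 0 lower, and leaving out leg array 2 gave 8 and 1. Krt19, a keratin of simple and glandular epithelium, read 294, 1384 and 762 in extraocular muscle, against 39.2, 45.6 and 56.2 in leg muscle (4.08-fold, adjusted p = 0.000399). Aldh3a1, an abundant corneal enzyme, read 1492, 2487 and 2498 in extraocular muscle, against 537, 663 and 209.7 in leg muscle (3.76-fold, adjusted p = 0.00452). The list summed to 42215 to 52653 in extraocular muscle, against 22246 to 24140 in leg muscle, while the basal keratin genes Krt5 and Krt14 were too dim to test. Of 12 retina and eye pigment genes 1 was higher (Gnb1, a widely expressed G protein subunit) and 1 lower (Pde6a). Leaving out extraocular array 2 or leg array 1 ended the Gnb1 call, and 5 of the 6 fits leaving out 1 array ended the Pde6a call (adjusted p up to 0.0638 and 0.173). The sums of the list, 17551 to 25730 in extraocular muscle and 16482 to 25476 in leg muscle, overlapped.

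**Figure D4:**
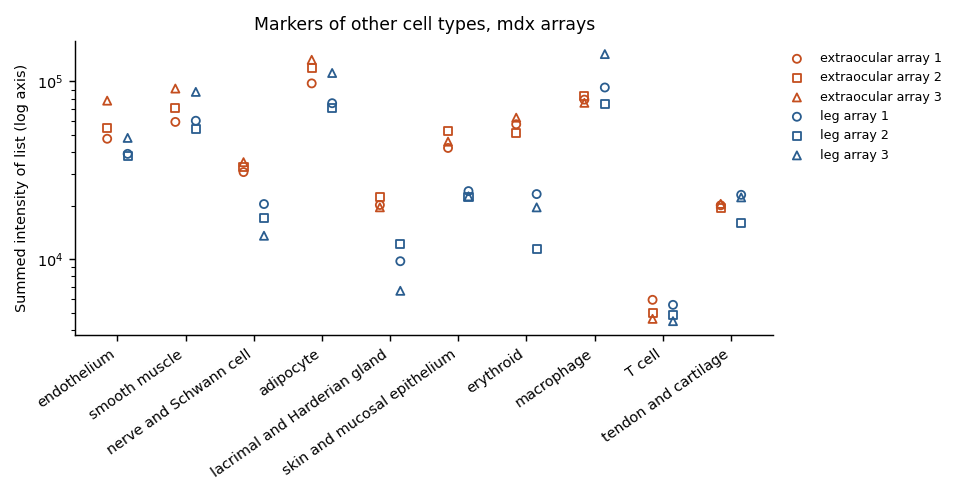
Summed intensity, on a log axis, of the tested genes of 10 marker lists on each mdx array, extraocular muscle to the left of leg muscle. The sums of nerve, gland, epithelium and erythroid markers do not overlap between the muscles, and those of smooth muscle, adipocyte, macrophage, T cell and tendon markers do. Single genes weigh heavily in some sums. Apod makes up much of the extraocular gland sums, and Pmp22 and Mbp much of the extraocular nerve sums. Car3 makes up much of the adipocyte sum on leg array 3, the only leg sum of that list within the extraocular range.

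The same contrast was then read in the dko arrays, which share no array with the mdx contrast, although the fit estimates 1 spread over all 18. There 674 probe sets were called (7.58%), 359 higher (4.04%) and 315 lower (3.54%). Of the 581 probe sets higher in mdx extraocular muscle, 547 (94.1%) had a positive difference in dko and 258 (44.4%) were called higher there, which is 71.9% of the 359. Of the 525 lower ones, 501 (95.4%) had a negative difference in dko and 195 (37.1%) were called lower, which is 61.9% of the 315. Among probe sets not called in mdx, 51.1% had a positive and 48.9% a negative difference in dko. The median log2 difference of the mdx-higher probe sets was 0.60 in dko and 0.89 in mdx, and that of the mdx-lower ones -0.50 in dko and -0.81 in mdx, where the calls were made. Adipoq, Bpifa2, Mbp and Kcnma1 kept their sign and call in dko (2.99, 4.61, 2.49 and 2.25, adjusted p = 0.000145, 8.25e-07, 1.26e-05 and 1.23e-05). So did Ankrd2, Smyd2, Cacng1 and Hoxc9 among the lower genes (-3.08, -3.16, -2.72 and -1.71, adjusted p = 1.22e-06, 0.000138, 8.79e-05 and 5.12e-05). Other genes with large mdx differences were not called in dko. Among the higher ones these included Myl2, Myh3, Tpm3 and Pglyrp1 (0.0143, 0.70, 1.34 and 0.92, adjusted p = 0.996, 0.164, 0.118 and 0.297). Among the lower ones they included Ctss, Gadd45b and Gsdme (-0.69, -0.33 and -0.96, adjusted p = 0.102, 0.696 and 0.234).

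Counted by gene, 7.79% of the 6551 were called in dko, 4.38% higher and 3.4% lower. By list, 9 endothelial genes were higher in dko extraocular muscle and 0 lower, and 6 nerve and Schwann cell genes were higher and 1 lower. Among adipocyte genes 8 were higher and 1 lower, among gland genes 3 and 0, among skin and mucosal epithelium genes 2 and 0, and among macrophage genes 0 and 6. The dystrophin complex list had 1 higher and 3 lower genes in dko, the limb and trunk patterning list 2 and 3, and the matrix list 2 and 7. The neuromuscular junction list had 2 higher and 0 lower genes in dko, against 6 and 1 in mdx. The cell division list had 0 and 0 in dko, against 1 higher and 5 lower in mdx. Whether these counts differ between genotypes was not tested.

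A test of the difference between the dko and mdx contrasts called 5 probe sets (0.0563%), with 667 at an unadjusted p under 0.05. Without the replicate block, without the arrays numbered 3, and in a fit without the heart arrays, it called 0, and leaving out 1 array at a time it called 1 to 5. Myh7 read 15142, 21658 and 24223 in dko extraocular muscle and 17632, 15031 and 16145 in dko leg muscle, where the muscles overlapped, against the separate mdx readings given above. The difference between the contrasts was -4.17 (adjusted p = 0.0294). Tnnc1 read 10632, 13264 and 22242 in dko extraocular muscle and 11874, 9672 and 14006 in dko leg muscle, and its difference was -2.45 (adjusted p = 0.0294). For both genes the extraocular readings of dko and mdx overlapped, and the dko leg readings lay far above those of mdx leg. Over the slow contractile list as a whole, 0 genes were higher and 3 lower in dko, with a median of 0.31, against 6 higher, 2 lower and 1.51 in mdx. Myom2 was lower in extraocular muscle of both genotypes and read 1507, 1433 and 1128 in dko extraocular muscle, against 10933, 9097 and 13350.2 in dko leg muscle.

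**Figure D5:**
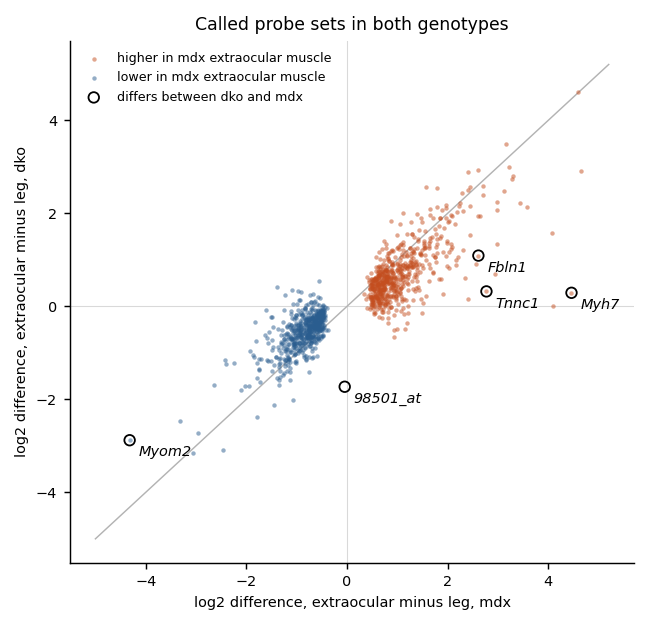
The log2 difference, extraocular minus leg, in dko arrays against that in mdx arrays for the 1106 probe sets called in mdx, with the line of equality. Circles mark the 5 probe sets whose difference itself differed between genotypes. Most points share their sign, and Myh7 and Tnnc1 lie near 0 in dko.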

How the data were processed

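Total RNA of 3 mdx extraocular, 3 mdx leg and the 12 other muscle samples had been hybridised to mouse Affymetrix arrays. The authors deposited linear intensity values, and these show that each array was scaled to a mean of 1500.69 to 1501.15 with 2% trimmed at each tail. The software, detection calls and scan dates are not given in the sources used here. All 18 columns were used, and 0 pairs of arrays held identical values. Of 12488 probe sets, 66 were controls, set aside before testing. Of those controls 7 were called in the same contrast, all of them for mouse transcripts or repeats and none for bacterial spikes. The supplied annotation gave 1 symbol to 10833 of the other 12422 probe sets, several to 396 and none to 1193.

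Probe sets above the 40th percentile in at least 3 arrays were tested on log2(intensity + 166.7), where 166.7 is the median of the 25th percentiles. limma 3.58.1 (R 4.3.3) fitted 6 group means and the replicate number as a block over all 18 arrays (degrees of freedom 10 residual, 4.04 prior), with p-values adjusted by Benjamini and Hochberg over 8888 probe sets, two-sided. The pairing by number rests on the correlations given in the report, since the labels do not explain it. Array number limits the precision. The code was tested on simulated data.

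Genes named were the 20 highest and 20 lowest called ones without overlap, called members and defining markers of 37 lists, Dmd, Utrn, and genes whose contrast differed between genotypes. The arrays, lists and rules were chosen with earlier results of these data known, so list counts and medians carry no test. The lists are those counted in the report and the closing section. Alternatives changed the block, scaling, offset, filter, variance model and arrays. Figures used matplotlib 3.10.9 in Python 3.11.15.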

Additional observations from a re-analysis of the deposited data

Results flagged for a closer look

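For 5 probe sets the difference between extraocular and leg muscle itself differed between dko and mdx mice by the interaction test in limma. Myh7, slow myosin, had a difference between contrasts of -4.17 (adjusted p = 0.0294), and Tnnc1, slow troponin C, one of -2.45 (adjusted p = 0.0294). Fbln1, fibulin 1 of the matrix, had one of -1.52 (adjusted p = 0.0379). It read 1441, 1393 and 1532 in dko extraocular muscle and 433, 743 and 640.4 in dko leg muscle, against 1769, 1756 and 2618 in mdx extraocular muscle and 191, 183 and 197 in mdx leg muscle. A brighter Fbln1 probe set was not called in this test (adjusted p = 0.778). Myom2 had one of 1.44 (adjusted p = 0.0402), with dko extraocular readings of 1507, 1433 and 1128 above the mdx extraocular readings of 352, 433 and 478. The probe set 98501_at, which the supplied annotation does not name, had one of -1.68 (adjusted p = 0.00494). It read 218, 98.7 and 40.7 in dko extraocular muscle and 821, 881 and 574 in dko leg muscle, against 253, 254 and 106 in mdx extraocular muscle and 303, 245 and 108 in mdx leg muscle, so that dko leg muscle alone was high. Groups of 3 are too small for a check on outlying samples.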

How the results depend on the processing

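The replicate block mattered most. Without it the mdx contrast had 357 calls (228 higher, 129 lower), against 1106 (581 higher, 525 lower), the share of higher calls was 63.9%, against 52.5%, the dko contrast had 190 calls, against 674, and the difference between the contrasts 0, against 5. With only the arrays of each contrast the numbers were 453 (259 higher, 194 lower), 258 and 0. Without the arrays numbered 3 they were 601 (330 higher, 271 lower), 220 and 0. Leaving out 1 array at a time gave 754 to 880 calls in mdx (388 to 481 higher, 346 to 399 lower), 381 to 536 in dko and 1 to 5 for the difference between contrasts, which was 8 with the offset doubled, 3 with no filter and 8 with trend and robust options. The 4 mdx calls among unsteady bright probe sets, Acta1, Aldoa, Ldha and Plk3, leave 1102 when these are dropped, an alternative added after seeing the data. Other scalings, offsets, filters and variance models kept the mdx count within 1.5 times. Of 195 named genes called, none changed sign under the alternatives run, 101 stayed called without the block and 145 to 158 without 1 array, while the cause of the losses was not tested. Of the 1106 probe sets, 533 were called in every fit that left out 1 array. Some list medians changed sign: fast contractile genes to -0.286 without leg array 2, and under the stricter filter chemokines to 0.0836, gland genes to -0.0462 and insulin-like growth factor genes to 0.582, while medians within 0.1 of 0 turned for T cell, glycolysis, head patterning, immediate early, regeneration, retina, tendon, tricarboxylic acid cycle and ion channel genes under 1 or more settings. Without the block the counts were 0 lower for the dystrophin complex, 4 lower for macrophages, 4 higher for endothelium, 4 higher for nerve and Schwann cells and 9 higher for epithelium. With 3 arrays a group, small differences in dim genes could not be resolved, and detection calls against background were not used here.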

Other observations

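Genes that defend against oxidants and bind heat-damaged proteins were more often higher than lower in mdx extraocular muscle. Of 31 tested, 6 were higher and 1 lower, with a median log2 difference of 0.11. Sod3, extracellular superoxide dismutase, read 6236, 4269.5 and 8647 in extraocular muscle, against 3239, 2285 and 3013 in leg muscle (2.11-fold, adjusted p = 0.000703), and Sod1, the cytosolic form, 12867, 10542 and 13112 in extraocular muscle, against 7199, 7429.7 and 8837 in leg muscle (1.54-fold, adjusted p = 0.00361). Gsta4, a glutathione transferase for lipid aldehydes, Hspa1b, an inducible Hsp70, and Gpx3, a secreted glutathione peroxidase, were 2.74-, 2.49- and 2.17-fold higher. Gpx1, the cytosolic peroxidase, was 1.36-fold lower, a call lost in 5 of the 6 fits leaving out 1 array (adjusted p up to 0.139). The metallothioneins Mt1 and Mt2 were 2.04- and 2.3-fold lower and made up the 2 lower and 0 higher genes of 19 in the glucocorticoid, fasting and atrophy list (median -0.19). The Mt1 call was lost without extraocular array 3 or leg array 2 or 3, and the Mt2 call without those or extraocular array 1 (adjusted p up to 0.126 and 0.179).

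Of 25 proteasome and ubiquitin genes 0 were higher and 4 lower, with a median of -0.24. Ube2g1, a ubiquitin-conjugating enzyme, read 5208, 6410.2 and 4519 in extraocular muscle, against 11499, 14354 and 8777 in leg muscle (2.09-fold lower, adjusted p = 0.00111). The proteasome subunits Psmb5, Psmc1 and Psmc2 were 1.41- to 1.64-fold lower, and the Psmc2 call was lost in 5 of the 6 fits leaving out 1 array (adjusted p up to 0.157). Among 13 genes of insulin-like growth factors and their binding proteins, 3 were higher and 2 lower (median -0.13). Igfbp6, which prefers Igf2, read 9588, 9256 and 11180.5 in extraocular muscle, against 3377, 2027 and 5132 in leg muscle (2.94-fold, adjusted p = 0.000451), and the docking protein Irs1 read 17.9, 13.9 and 100.4 in extraocular muscle, against 515, 354 and 482 in leg muscle (2.96-fold lower, adjusted p = 0.000451). Of 17 voltage-gated and other ion channel genes, Kcnma1 and Kcna1 were higher and Cacng1 lower. Kcna1, a potassium channel of axons, was 4.25-fold higher, a call lost without extraocular array 3 or leg array 3 (adjusted p up to 0.061). Of 19 immediate early genes 3 were higher (Klf4, Rgs2 and Egr2) and 0 lower, and of 18 ribosomal protein genes 0 were called by limma (1 at an unadjusted p under 0.05). The Rgs2 call was lost without extraocular array 3 or leg array 2 (adjusted p up to 0.081).

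Several abundant fast-fibre and glycolytic transcripts read very low on leg arrays 1 or 2 and very high on leg array 3. Casq1, calsequestrin, read 25991, 22598 and 45456 in extraocular muscle and 9514, 7.9 and 39647 in leg muscle. Eno3, muscle enolase, read 31161, 23386 and 51152 in extraocular muscle and 14637, 812 and 61321 in leg muscle. Aldoa, muscle aldolase, read 28132, 12647 and 35389.5 in extraocular muscle and 344, 14.7 and 28446 in leg muscle, on 1 of its probe sets. Of these probe sets that of Aldoa was called.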
